A study of Mus musculus with 48 samples.

Results

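This comparison asks what losing 1 working copy of Msh3 does to the cortical transcriptome of Huntington disease model mice. It sets 8 cortical RNA-seq libraries titled as Q140 heterozygous knock-in crossed to Msh3+/- against 8 titled as Q140 heterozygous knock-in alone, chosen by those titles, so that 16 of the 48 libraries of the series enter the comparison itself. Every gene that passed a filter on low counts was tested, 19547 of 48795. Both groups are C57BL/6 mice of 12 months, 4 females and 4 males each, and both carry the Q140 allele, a knock-in of an expanded CAG repeat at the mouse Htt locus, on 1 chromosome. They are called Q140 and Q140 Msh3+/- below, and a library is named by group, sex and replicate number. The other 32 libraries are wild type, Msh3+/-, Msh3-/- and Q140 Msh3-/- cortex with the same ages, sexes and group size. All 48 libraries entered the fit, which shares 1 estimate of the spread over the 6 groups. How the Msh3 allele was made and which part of the gene it lacks are not given in the sources used here. The labels disagree in 1 point: the extraction text concerns striatum at another age, and the title, tissue and age fields were followed here (cortex, 12 months).

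Msh3 is a subunit of MutSbeta, a mismatch repair complex that recognises small loops of unpaired DNA such as those formed by trinucleotide repeats. In Huntington disease the CAG repeat of HTT lengthens with age in some brain cells, a process called somatic expansion, and MSH3 is among the human genes whose variants are associated with the age at which symptoms begin. Mice that lack Msh3 show less somatic expansion, so that heterozygous mice are a model of partial lowering.

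Library totals ran from 45.1 to 55.7 megacounts in Q140, with a median of 51.1, and from 37.7 to 57.3 megacounts in Q140 Msh3+/-, with a median of 48.1 (gene counts, the mega prefix as in megabases). Cortical genes were abundant in all 16 libraries. Slc17a7, the vesicular glutamate transporter of cortical projection neurons, was between 1273 and 1504 counts-per-million (CPM, with TMM factors), whereas Drd1 and Adora2a, dopamine and adenosine receptor genes of striatal projection neurons, were between 5.26 and 7.90 CPM and between 1.36 and 2.56 CPM. Since RNA was taken from whole tissue, fewer cells of a type and less RNA per cell cannot be told apart in any result below.

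Msh3, the targeted gene, came first as a check of the labels. Its count was 20.8, 21.5 and 23.7 CPM (lowest, median and highest library) in Q140 and 54.4, 58.2 and 61.2 CPM in the libraries labelled Q140 Msh3+/-. All 8 libraries labelled Msh3+/- lay above all 8 Q140 libraries. The log2 fold change, Q140 Msh3+/- minus Q140 here and throughout unless another pair is named, was 1.41 ± 0.045 (SE; edgeR quasi-likelihood test with Benjamini-Hochberg adjustment, n = 8 per group, adjusted p = 4.72e-31), a count 2.66 times that of Q140. The count of the targeted gene thus goes against what the label would give for a plain loss of transcript, and it sums reads over the whole gene, so it is no measure of intact Msh3 mRNA. Msh3 lies on GRCm38 chromosome 13 from 92211872 to 92355003 on the minus strand. The strand setting of the counting is not given in the sources used here, so reads of genes that overlap on opposite strands may not have been told apart.

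Htt, the gene that carries the knock-in, had the same level in both groups. It was at 225, 242 and 256 CPM in Q140 and at 224, 242 and 259 CPM in Q140 Msh3+/-, and its log2 fold change was 0.00 ± 0.036, with a 95% interval from -0.07 to 0.07. The count does not separate the knock-in from the wild-type allele.

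Over the whole transcriptome, 6 of 19547 genes passed an adjusted p under 0.05 (0.0307%), of which 1 was higher (0.00512%) and 5 were lower (0.0256%) in Q140 Msh3+/-. The gene that rose was Msh3. The 5 that fell were Rasgrf2, Cmya5 and Fam169a, which lie on chromosome 13 within 5 Mb of Msh3, and E230020A03Rik and Gm37827, unnamed gene models on chromosome 7. At an unadjusted p under 0.05 there were 1216 genes (6.22%), 600 higher (3.07%) and 616 lower (3.15%).

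**Figure D1:**
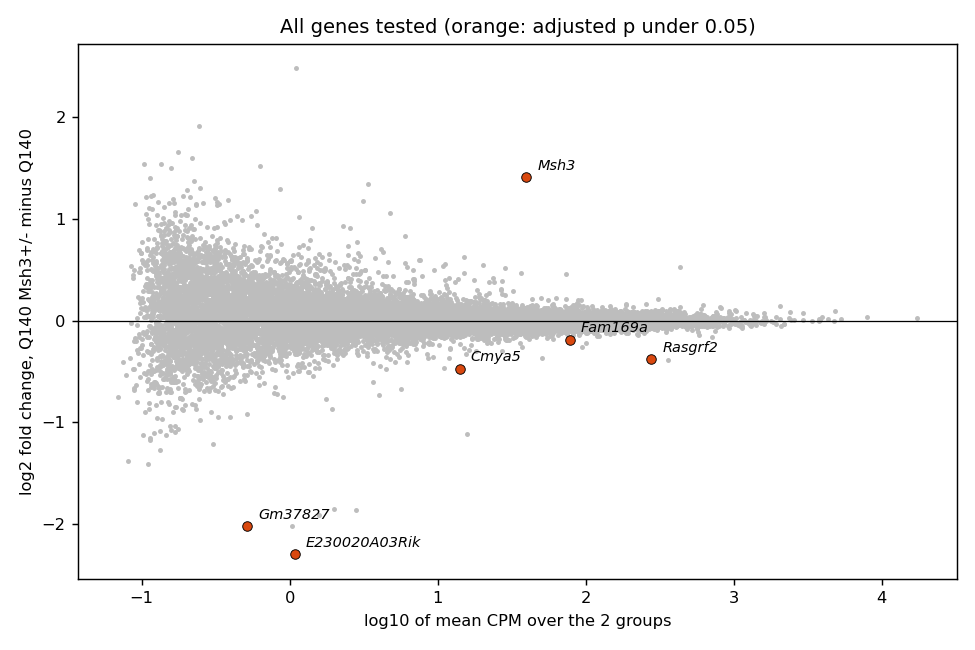
Log2 fold change of each of the 19547 genes tested (y axis, Q140 Msh3+/- minus Q140) against the log10 of its mean CPM over both groups (x axis), with the 6 genes at an adjusted p under 0.05 in orange. Msh3 lies at 1.41, far above other genes of its level, Rasgrf2, Cmya5 and Fam169a lie between -0.47 and -0.19, and the chromosome 7 models E230020A03Rik and Gm37827 lie near -2 at about 1 CPM or less.

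Rasgrf2 encodes a guanine nucleotide exchange factor for Ras and Rac and is used as a marker of upper-layer cortical neurons. It lies 80.2 kb from Msh3 on the same strand (chromosome 13, 91880400 to 92131656). Its level was 277, 319 and 361 CPM in Q140 and 219.7, 244 and 258 CPM in Q140 Msh3+/-, so the groups did not overlap. The log2 fold change was -0.38 ± 0.044 (edgeR, adjusted p = 1.03e-07), a change of -23.2%.

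Cmya5, which encodes the muscle protein myospryn, lies 0.686 Mb from Msh3 on the other side (chromosome 13, 93040713 to 93144724). It was at 14.2, 16.3 and 18.8 CPM in Q140 and at 9.60, 12.4 and 13.3 CPM in Q140 Msh3+/-. These ranges did not overlap either, and the log2 fold change was -0.47 ± 0.069 (edgeR, adjusted p = 7.03e-05). Exons of Cmya5 share 2451 bases with the antisense gene A630019I02Rik, and the counts of that pair may not be separate.

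Fam169a, 4.71 Mb from Msh3 (chromosome 13, 97067286 to 97131013), showed the smallest change that passed. It was at 79.98, 82.1 and 88.1 CPM in Q140 and at 69.15, 72.7 and 76.4 CPM in Q140 Msh3+/-, again without overlap, and its log2 fold change was -0.19 ± 0.033 (edgeR, adjusted p = 0.0027). It shares 1590 exon bases with Nsa2 on the opposite strand.

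The levels of the called chromosome 13 genes were ordered by the number of Msh3 alleles labelled as mutant. Mean Msh3 counts went up by 36.1 CPM from Q140 to Q140 Msh3+/- and by a further 37.4 CPM to the libraries labelled Q140 Msh3-/-. The steps in mean Rasgrf2 were -73.3 CPM and then -72.6 CPM, to 76.7% and then 53.6% of its Q140 level. The steps in mean Cmya5 were -4.55 CPM and then -4.16 CPM, to 72.3% and 47.0% of its Q140 level. The steps in mean Fam169a were -10.1 CPM and then -7.12 CPM, to 87.8% and 79.3%. The Q140 Msh3+/- and Q140 Msh3-/- libraries did not overlap for Msh3, Rasgrf2 or Cmya5 and did overlap for Fam169a. These percentages share the same Q140 libraries, so they are given side by side with no test of the second step.

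The same genes could be looked up in mice without Q140, since Msh3+/- against wild type uses none of the 16 libraries compared here. In that comparison 6 genes passed (0.0307%): Msh3 at 1.43 ± 0.045 (adjusted p = 2.44e-31), Rasgrf2 at -0.27 ± 0.044 (adjusted p = 0.000837), Cmya5 at -0.33 ± 0.068 (adjusted p = 0.0432), and the chromosome 7 models E230020A03Rik, Gm37827 and Gm38340. Fam169a was at -0.14 ± 0.033 there, with an adjusted p of 0.136. Mean Rasgrf2 in Msh3+/- was 83.1% of wild type, that of Cmya5 80.1% and that of Fam169a 90.5%. Unlike in the Q140 background, the Msh3+/- and wild-type libraries overlapped for all 3. Whether the step itself was larger with Q140 was tested as the interaction of Msh3+/- with Q140, in which no gene passed (0 of 19547, 0%; 646 genes at an unadjusted p under 0.05, smallest adjusted p = 0.999). The interaction was -0.11 on the log2 scale for Rasgrf2, with a 95% interval from -0.24 to 0.01, and -0.14 for Cmya5, with an interval from -0.34 to 0.05.

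**Figure D2:**
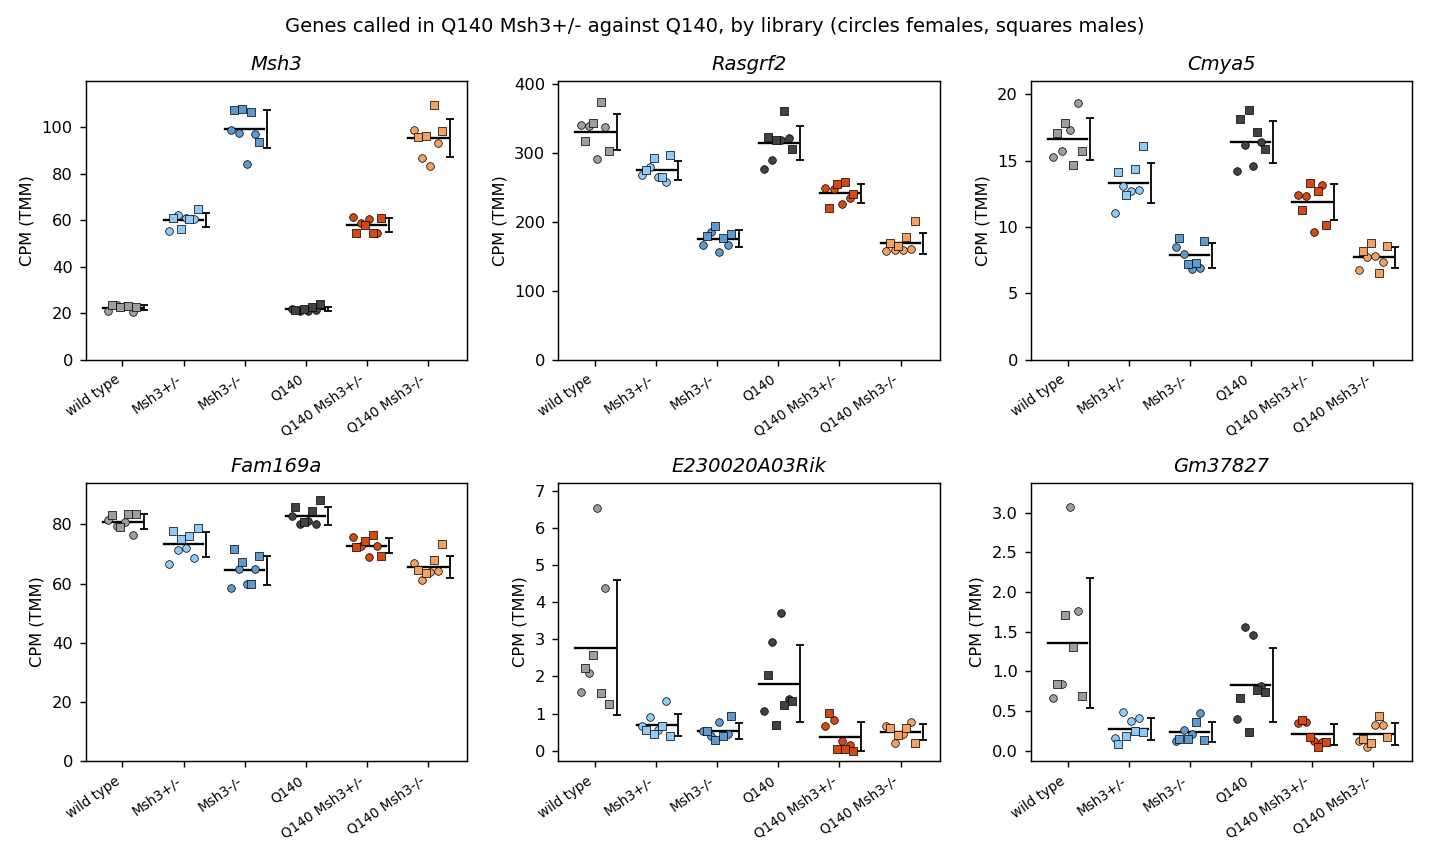
CPM of the 6 called genes in each of the 48 libraries (y axis), by genotype (x axis); circles are females, squares are males, the horizontal line is the mean and the bar to its right is 1 SD over 8 libraries. Msh3 counts go up, and Rasgrf2, Cmya5 and Fam169a go down, in steps with the Msh3 genotype both without and with Q140, whereas E230020A03Rik and Gm37827 are at about the same low level in all 4 groups that carry the Msh3 allele.

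Other genes around Msh3 were examined by distance. Of the 212 genes tested within 20 Mb, Msh3 left out, 28 had an unadjusted p under 0.05 (13.2%, against 6.22% of all genes), 19 of them lower. Within 5 Mb the count was 14 of 65 (21.5%), 12 lower and 2 higher. From 5 to 20 Mb it was 14 of 147 (9.52%), with 7 in each direction. Over the rest of chromosome 13 it was 25 of 454 (5.51%), and on the other chromosomes 1162 of 18880 (6.15%). Around Htt, the other modified locus, labelled as heterozygous Q140 in both groups, 20 of 336 genes within 20 Mb had an unadjusted p under 0.05 (5.95%).

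The 14 genes within 5 Mb were then read in Msh3+/- against wild type, where 4.96% of all genes had an unadjusted p under 0.05. All 14 had the same sign there, and 9 of the 14 (64.3%) also had an unadjusted p under 0.05. Of the 14 genes from 5 to 20 Mb, 11 had the same sign and none (0) had such a p. On other chromosomes 777 of the 1162 genes had the same sign (66.9%), and 58 had both the same sign and such a p (4.99%). The share of 4.96% over all genes counts either sign, so it is not a like background for these same-sign counts. A same-sign share over all genes is not given here. Beside the 3 called genes, the 9 were Ankrd34b, AW495222, Bhmt2, Col4a3bp, F2r and F2rl2.

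AW495222, an antisense gene within Dmgdh, came closest to passing among these. It was at 4.76, 5.25 and 5.70 CPM in Q140 and at 2.82, 3.53 and 5.73 CPM in Q140 Msh3+/-, where 7 of 8 libraries lay under the whole Q140 range. Its log2 fold change was -0.47 ± 0.103 (edgeR, adjusted p = 0.0837, and 0.000765 without Q140 Msh3+/- F1, the 1 library above that range), beside -0.37 ± 0.103 in Msh3+/- against wild type. It shares 215 exon bases with Dmgdh, the dimethylglycine dehydrogenase gene, on the opposite strand. Dmgdh, at a mean of 0.987 CPM, had the opposite sign, at 0.25 ± 0.201 here and at 0.87 in Msh3+/- against wild type.

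Bhmt2, a homocysteine methyltransferase gene 1.301 Mb from Msh3, was at 0.712, 0.977 and 1.55 CPM in Q140 and at 0.502, 0.625 and 0.733 CPM in Q140 Msh3+/-, with a log2 fold change of -0.72 ± 0.174 (adjusted p = 0.238). Ankrd34b, 0.0709 Mb away, was at 24.6, 26.8 and 28.03 CPM and at 21.6, 23.4 and 25.7 CPM. Its difference of -0.17 ± 0.049 (adjusted p = 0.508) lay beside one of -0.19 ± 0.049 without Q140. Of the protease-activated receptor genes that neighbour each other about 3 Mb away, the thrombin receptor gene F2r was at 0.21 ± 0.105, F2rl2 at -0.43 ± 0.160 and F2rl1, under 1 CPM, at -1.06 ± 0.417, so the signs differed within the cluster and none passed.

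Not every neighbour moved. Of the 12 nearest tested genes with a symbol, 6 on each side, Rasgrf2 passed, and Ankrd34b, Thbs4 and Mtx3 had an unadjusted p under 0.05. The zinc finger gene Zcchc9 was at 0.02 ± 0.054, the autophagy gene Atg10 at 0.02 ± 0.066, Zfyve16 at -0.02 ± 0.041 and Serinc5 at 0.02 ± 0.043, and Fam151b, Acot12, Ssbp2 and Rps23 lay between -0.16 and 0.25. The labels do not say from which strain the Msh3 allele came, and whether DNA linked to it differs between the groups was not tested.

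**Figure D3:**
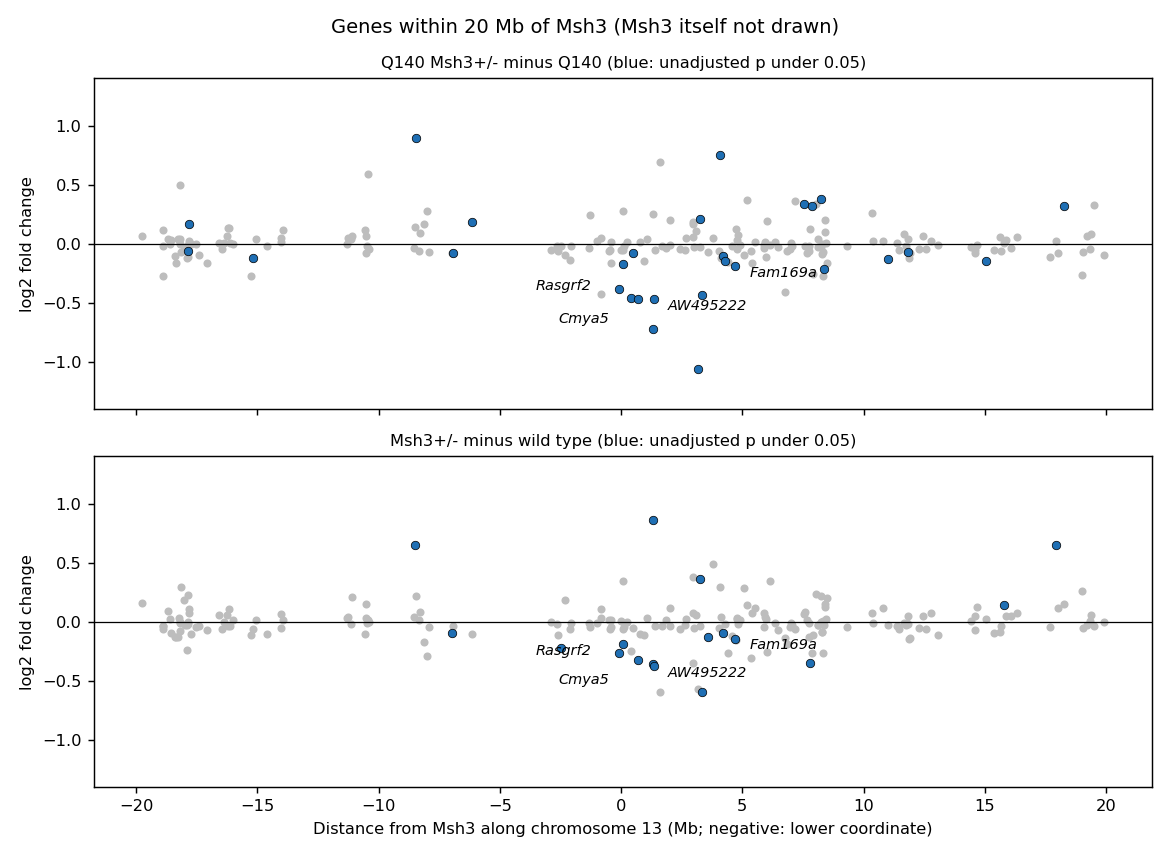
Log2 fold change (y axis) of genes within 20 Mb of Msh3 against their distance from it in Mb (x axis), for Q140 Msh3+/- minus Q140 (upper panel) and for Msh3+/- minus wild type (lower panel), which shares no library with it; blue points have an unadjusted p under 0.05. In both panels many of the blue points lie within 5 Mb of Msh3, mostly under 0, with Rasgrf2, Cmya5, AW495222 and Fam169a at similar places.

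On chromosome 7, E230020A03Rik (36727177 to 36729562) and Gm37827 (36733017 to 36734558) lie within the annotated span of Tshz3, a zinc finger homeobox gene, on the same strand and share none (0) of its exon bases. GENCODE gives them the biotype TEC, for gene models not yet tested experimentally. E230020A03Rik was at 0.691, 1.36 and 3.72 CPM in Q140 and at 0.00, 0.206 and 1.01 CPM in Q140 Msh3+/-, which is 36 to 209 counts against 0 to 50 counts a library. The groups overlapped, with 6 of 8 Q140 Msh3+/- libraries under the whole Q140 range, and the log2 fold change was -2.30 ± 0.427 (edgeR, adjusted p = 0.0119). Gm37827 was at 0.230, 0.750 and 1.56 CPM and at 0.0433, 0.145 and 0.384 CPM, with overlap, and its log2 fold change was -2.02 ± 0.399 (edgeR, adjusted p = 0.0229). Among Q140 libraries both models were highest in F2 and F3 and lowest in M2. Among Q140 Msh3+/- libraries both were highest in F1, F2 and M1. These neighbouring calls may thus not be separate, which was not tested.

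Gm38340, another such model beside them (36721846 to 36725853), was at 1.22, 2.16 and 4.49 CPM and at 0.108, 0.525 and 1.52 CPM, a difference of -1.91 ± 0.429 that did not pass (adjusted p = 0.1604). Tshz3 itself was at 54.2, 59.3 and 63.3 CPM in Q140 and at 51.7, 56.3 and 58.2 CPM in Q140 Msh3+/-, a difference of -0.09 ± 0.046 (adjusted p = 0.777). In mice without Q140 the models had differences of -2.02 ± 0.333, -2.35 ± 0.330 and -1.89 ± 0.338 in the same order, with adjusted p of 0.00158, 4.86e-05 and 0.00629. Unlike the chromosome 13 genes, they showed no further step: mean E230020A03Rik was 0.376 CPM in Q140 Msh3+/- and 0.491 CPM in Q140 Msh3-/-, against 1.80 CPM in Q140.

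The chromosome 7 calls were kept in fewer alternative fits than those on chromosome 13. With the 16 libraries fitted alone, E230020A03Rik had an adjusted p of 0.5002 and Gm37827 one of 0.0734. E230020A03Rik kept its call in 13 of 16 fits without 1 library. It lost it without Q140 Msh3+/- F3 (adjusted p = 0.0702) or F4 (0.0667) or without Q140 F3 (0.102). Gm37827 kept its call in 7 of 16 such fits. It lost it without Q140 Msh3+/- F3 (0.134), F4 (0.114), M2 (0.0556), M3 (0.0773) or M4 (0.0709) or without Q140 F2 (0.106), F3 (0.137), M3 (0.0539) or M4 (0.0501). Rasgrf2, Cmya5 and Fam169a kept theirs in all 16 such fits and in all 10 alternative fits of both sexes.

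Elsewhere the groups were close for most genes of at least 1 CPM. Among the 15093 genes with a mean of at least 1 CPM, the median SE of a log2 fold change was 0.0562. For 82.8% of them the 95% interval lay within 0.32 of 0 on the log2 scale, and for 96.5% within a 1.5-fold change either way. For the 4454 genes under 1 CPM the median SE was 0.3002, and the interval lay within a 1.5-fold change for 18.8% of them. Closeness could thus not be shown for most of those genes. The median log2 fold change over all tested genes was 0.00. Ranges of the 8 and 8 libraries did not overlap for 8 genes (0.0409%), the 4 called on chromosome 13 and 4 that did not pass. The latter, named after their values were seen, were Rpp38, a subunit gene of RNase P, at -0.32 ± 0.087, the transcription activator gene Camta2 at 0.09 ± 0.027, the mitochondrial GTPase gene Mtg2 at 0.14 ± 0.047 and Gm15943 at 0.73 ± 0.203, with adjusted p from 0.508 to 0.768.

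Of the genes that did not pass, those with the smallest p on the higher side included Plxnd1, a semaphorin receptor gene, at 164, 176 and 198 CPM in Q140 and 186, 201 and 211 CPM in Q140 Msh3+/-. Its difference was 0.16 ± 0.040 (adjusted p = 0.470). Beside it stood Hexdc, a hexosaminidase gene, at 0.23 ± 0.062 (0.28 with an adjusted p of 0.0321 without Q140 F4), the polo-like kinase gene Plk5 at 0.38 ± 0.103, the calcium channel subunit gene Cacnb3 at 0.11 ± 0.032, and Shisa4, Armc2, Gnb1l, Mei1 and Ntn5 between 0.15 and 0.32. Their adjusted p lay between 0.508 and 0.559.

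On the lower side, outside chromosome 13, stood Scaf11, a splicing factor gene, at -0.10 ± 0.027, and Taf1, a subunit gene of the general transcription factor TFIID, at -0.11 ± 0.033. Cul4b, a ubiquitin ligase scaffold gene on the X chromosome, was at -0.13 ± 0.036, with Tceal9 at -0.16 ± 0.043 and Zfp146 at -0.17 ± 0.048. Ddx3y, an RNA helicase gene on the Y chromosome, was at 57.3 to 62.6 CPM in the 4 Q140 males and at 45.6 to 54.5 CPM in the 4 Q140 Msh3+/- males, which did not overlap; its adjusted p was 0.508. Males of the other groups lay between 47.3 and 61.7 CPM, across both of those ranges.

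The comparison was also made within each sex. Females alone gave 2 called genes, Msh3 and Rasgrf2, and males alone gave 3, Msh3, Rasgrf2 and Cmya5. The differences of Rasgrf2 were -0.33 in females and -0.43 in males, and those of Cmya5 were -0.37 and -0.56. The interaction of Msh3+/- with sex in the 16 libraries called no gene (0 of 18260, 0%; 1063 genes at an unadjusted p under 0.05, smallest adjusted p = 0.809).

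Of particular interest were the genes that differ between Q140 and wild-type cortex, 20 by the same fit and threshold (0.102%). That comparison shares the Q140 libraries with the present one, so an accidental deviation of those libraries enters both with opposite sign, and the values are given side by side only. None (0) of the 20 passed in Q140 Msh3+/- against Q140, and 4 had an unadjusted p under 0.05, beside 6.22% of all genes. The 4 were Camk2n1, Camk2a, Cartpt and H2-Bl.

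Camk2n1 encodes an inhibitor of calcium/calmodulin-dependent kinase II. It was at 2296, 2392 and 2651 CPM in wild type, at 1721, 1952 and 2095 CPM in Q140 and at 1945, 2182 and 2283 CPM in Q140 Msh3+/-. In 7 of 8 Q140 Msh3+/- libraries it lay above the Q140 median, with overlap of the groups. The difference was 0.14 ± 0.039 (edgeR, adjusted p = 0.508), with a 95% interval from 0.07 to 0.22, beside -0.31 ± 0.039 for Q140 minus wild type and -0.17 (adjusted p = 0.0424) for Q140 Msh3+/- minus wild type.

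Camk2a, which encodes the alpha subunit of that kinase, was at 4341, 4713 and 4903 CPM in Q140 and at 4739.5, 5044 and 5325 CPM in Q140 Msh3+/-. All 8 Q140 Msh3+/- libraries lay above the Q140 median, and the difference was 0.09 ± 0.033 (adjusted p = 0.777), beside -0.15 ± 0.033 for Q140 minus wild type. Cartpt, a neuropeptide gene 7.54 Mb from Msh3 on chromosome 13, was at 3.35, 3.87 and 4.45 CPM and at 3.41, 4.80 and 5.98 CPM. Its difference of 0.34 ± 0.111 (adjusted p = 0.731) stands beside -0.49 ± 0.108 for Q140 minus wild type. H2-Bl, a class I histocompatibility pseudogene, was at 0.38 ± 0.184 beside -0.82 ± 0.171.

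Other genes of the 20 lay close to 0 in Q140 Msh3+/- against Q140. Slc1a2, the main glial glutamate transporter gene, was at 3554, 3809 and 4144 CPM in Q140 and at 3679, 3835 and 4053 CPM in Q140 Msh3+/-. Its difference was 0.01 ± 0.041, with a 95% interval from -0.08 to 0.09, beside -0.21 ± 0.041 for Q140 minus wild type. Glul, the glutamine synthetase gene of astrocytes, was at -0.01 ± 0.039 beside -0.17 ± 0.039. Abhd1, whose level in Q140 was 4.79, 6.25 and 7.43 CPM against 2.27, 3.15 and 3.82 CPM in wild type, was at 5.68, 6.47 and 8.16 CPM in Q140 Msh3+/-, a difference of 0.13 ± 0.083. Cgref1 and Atraid, which lie near Htt on chromosome 5 as Abhd1 does, were at 0.01 ± 0.073 and -0.02 ± 0.040, beside 0.47 ± 0.076 and -0.21 ± 0.040.

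Genes of differentiating and mature oligodendrocytes were among the 20 too. Enpp6, a choline phosphodiesterase gene of newly forming oligodendrocytes, was at 1.26, 2.06 and 2.42 CPM in wild type, at 3.49, 3.92 and 4.43 CPM in Q140 and at 2.50, 3.29 and 4.55 CPM in Q140 Msh3+/-. Its difference was -0.19 ± 0.108 (adjusted p = 0.789), with 6 of 8 libraries under the Q140 median. Zfp488, an oligodendrocyte transcription factor gene, was at -0.13 ± 0.087, and Anln at -0.19 ± 0.094. The stress-induced mTOR inhibitor gene Ddit4l was at 28.01, 35.5 and 40.8 CPM in Q140 and at 34.1, 37.5 and 48.2 CPM in Q140 Msh3+/-, a difference of 0.15 ± 0.092 beside -0.58 ± 0.090.

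**Figure D4:**
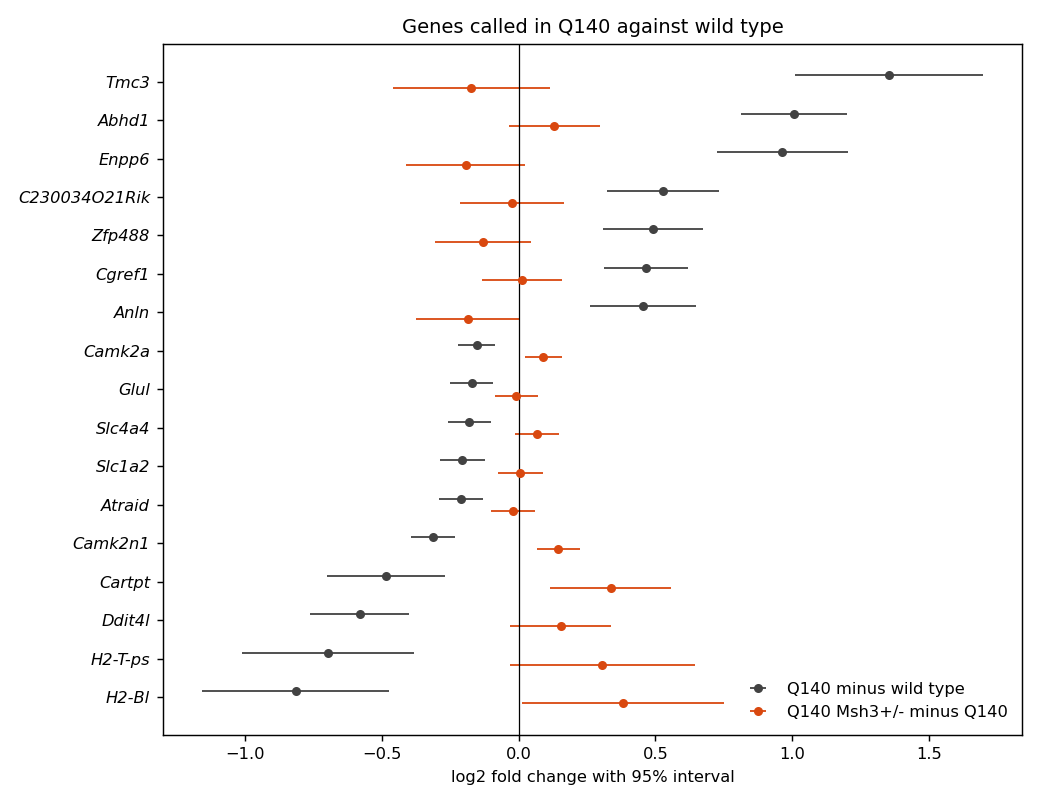
Log2 fold change with its 95% interval (x axis) of 17 of the 20 genes called in Q140 against wild type (y axis; among those not drawn are Prl and Gm2420, close to 0 CPM in one of the groups), for Q140 minus wild type in grey and Q140 Msh3+/- minus Q140 in orange. The orange points lie near 0, farthest to the right for H2-Bl and Cartpt and farthest to the left for Enpp6 and Anln, and both comparisons use the same Q140 libraries.

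The 41 gene lists hold 1015 tested entries, and a list is described by its members called, the number above and below 0 and its median, beside 9964 genes above and 9583 below 0 and a median of 0.00 over all genes. Msh3 and Rasgrf2 were the members called in any list.

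In the list of mismatch repair genes and modifiers of repeat expansion, Msh3 was the 1 member of 24 to pass. Of its members 12 lay above and 12 below 0. Msh3 and 3 lower members had an unadjusted p under 0.05 (16.7%, beside 6.22% of all genes). Msh6, a subunit of the mismatch repair complex MutSalpha, was at -0.10 (unadjusted p = 0.0454), and the MutL genes Mlh3, Pms1 and Pms2 lay between -0.03 and 0.00. Fan1, a nuclease gene whose variants modify human Huntington disease onset, was at 0.02, and Pcna, the sliding clamp gene, at -0.10 ± 0.047 (unadjusted p = 0.0325). None of 25 genes of the DNA damage and p53 response and none of 21 genes of huntingtin and its interacting partners passed or had an unadjusted p under 0.05 (0 in each list).

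Lists of synaptic genes were centred near 0. CaMKII and calmodulin signalling had 11 of 18 members above 0 and 4 with an unadjusted p under 0.05 (22.2%, beside 6.22% of all genes). Camk2n1, Camk2a and the upstream kinase gene Camkk2 were higher and the calmodulin gene Calm2 was lower. Camk2n1 and Camk2a are also genes called in Q140 against wild type, which shares the Q140 libraries. The list was chosen with earlier results of these data known, so its share is not independent of them. Glutamate receptors and postsynaptic proteins had 20 of 33 above 0, with the scaffold genes Shank1 at 0.13 ± 0.055 and Dlg4 at 0.06 ± 0.029. Among GABA-A receptor subunits, Gabra5 was at -0.22 ± 0.066 (adjusted p = 0.622) and Gabrd at 0.12 ± 0.045, subunits of receptors found outside synapses that stood on opposite sides of 0. Of the potassium channel genes, 21 of 40 were above 0.

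Neuronal layer lists showed small medians of either sign. Upper-layer projection neurons had 14 of 19 members above 0 and a median of 0.02, with Rasgrf2 as the 1 member called and lower, and the transcription factor gene Cux2 at 182, 201 and 219 CPM in Q140 and 212, 220 and 228 CPM in Q140 Msh3+/- (0.13 ± 0.048, adjusted p = 0.777). Layer 5 projection neurons had 11 of 16 below 0 and a median of -0.06, and GABAergic interneurons 19 of 26 below 0 with a median of -0.03. Gad2, a GABA-synthesising enzyme gene, was at -0.08 ± 0.034. Striatal, hippocampal and thalamic neuron lists had medians within 0.01 of 0, and their summed levels overlapped between the groups.

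Of the glial lists, microglia had 20 of 24 members above 0 and a median of 0.04. Gpr34, a lysophosphatidylserine receptor gene, was at 6.74, 8.22 and 9.92 CPM in Q140 and at 8.30, 9.22 and 12.3 CPM in Q140 Msh3+/- (0.22 ± 0.071, adjusted p = 0.730), and the lipid-sensing receptor gene Trem2 was at 0.17 ± 0.077. Summed over the list, the microglial level was 545 to 659 CPM in Q140 and 526 to 652 CPM in Q140 Msh3+/-, so the groups overlapped throughout. Astrocytes had 17 of 25 above 0, a median of 0.01 and Gfap at -0.06 ± 0.116, and mature oligodendrocytes 14 of 30 above 0.

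Serpina3n, a protease inhibitor gene that is raised in reactive astrocytes, was high in a few libraries. It was at 49.6 CPM in Q140 F3 and at 55.9 CPM in Q140 M4, while the other Q140 libraries lay between 9.41 and 13.1 CPM and the Q140 Msh3+/- libraries between 8.59 and 12.5 CPM. Q140 Msh3-/- M3, outside this comparison, was at 49.3 CPM. The difference of -1.12 ± 0.343 (adjusted p = 0.663) became -0.75 without Q140 F3 and -0.77 without Q140 M4. The other 25 reactive astrocyte genes summed to 203 to 279 CPM in Q140 and 182 to 245 CPM in Q140 Msh3+/-.

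No member of the lists of proteasome subunits, chaperones and oxidative phosphorylation passed (0). Proteasome subunits had 26 of 31 members below 0 and a median of -0.05. Of these members 4 were lower with an unadjusted p under 0.05 (12.9%, beside 3.15% of all genes). They were Psmd14 at -0.13 ± 0.041, Psmd11 at -0.09 ± 0.034, Psma1 and Psma6. Summed over the list, proteasome genes were at 1901, 1944 and 2011 CPM in Q140 and at 1773, 1896 and 1948 CPM in Q140 Msh3+/-. Heat shock proteins and chaperones had 25 of 31 below 0 and a median of -0.04, with the mitochondrial chaperone gene Hspa9 at -0.08 ± 0.034. Nuclear genes of oxidative phosphorylation had 43 of 66 below 0 and a median of -0.01. At an unadjusted p under 0.05, 8 were lower and 1 was higher (13.6%, beside 6.22% of all genes). Among them the complex I gene Ndufs1 was at -0.09 ± 0.034 and the complex II gene Sdha, 17.9 Mb from Msh3, at -0.07 ± 0.027. Mitochondrially encoded genes had 11 of 13 above 0, and their sum ranged from 32319.5 to 51459.7 CPM in Q140 and from 34073 to 50441 CPM in Q140 Msh3+/-.

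Immediate early genes, which neurons induce within minutes of activity, had 22 of 25 members below 0 and a median of -0.11, with none (0) at an unadjusted p under 0.05. Their median SE was 0.1998. The summed level ran from 1709 to 3891 CPM in Q140 and from 1591 to 3009 CPM in Q140 Msh3+/-. Clustered protocadherins had 40 of 55 below 0 and a median of -0.03.

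Lists of tissue that borders the cortex differed in how far they varied between libraries. Meningeal and fibroblast genes had 18 of 19 members below 0 and a median of -0.28, and their sum was 368, 618 and 769 CPM in Q140 and 116, 499.8 and 719 CPM in Q140 Msh3+/-, with the lowest value in Q140 Msh3+/- F1. Choroid plexus genes had 11 of 12 below 0 and a median of -0.12, but 8 of the 12 had a mean under 1 CPM. Their sum varied less, at 224 to 248 CPM in Q140 and 212 to 233 CPM in Q140 Msh3+/-. Ttr, their defining marker, was at 1.78 to 8.63 CPM in Q140 and 0.933 to 4.67 CPM in Q140 Msh3+/-. Of the haemoglobin genes, Hbb-bt was at 0.00 to 0.392 CPM in Q140 and 0.00 to 1.16 CPM in Q140 Msh3+/-, with overlap (1.91 ± 0.620, adjusted p = 0.693). The blood list, most of whose sum comes from genes other than haemoglobins, summed to 217 to 249.5 CPM in Q140 and 217 to 246 CPM in Q140 Msh3+/-. Of the pituitary list 3 of 12 genes were tested, and their sum was at most 3.68 CPM in these 16 libraries. No member of these lists passed (0), and their part in the results above was not tested.

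**Figure D5:**
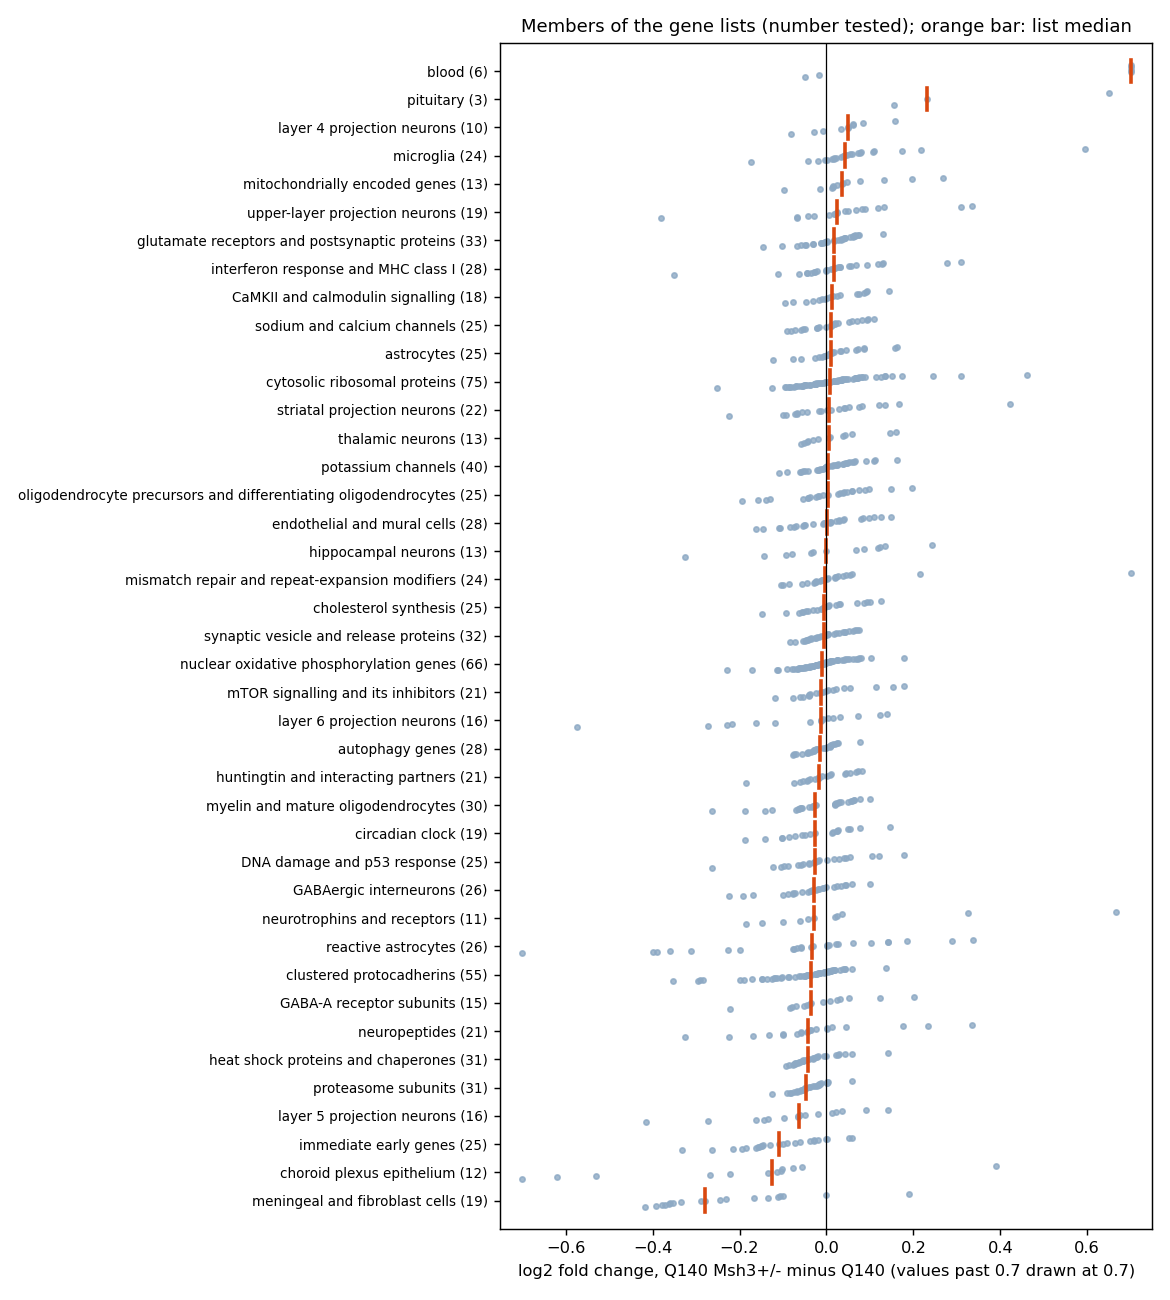
Log2 fold change, Q140 Msh3+/- minus Q140 (x axis), of each tested member of the 41 gene lists (rows, with the number tested). The list median is an orange bar, and 7 values past 0.7 are drawn at the edge. The bar of the blood list is drawn at the edge too, for a median of 1.19 over 6 genes, 3 of them under 1 CPM. Most medians lie close to 0, the blood list stands farthest to the right and the meningeal list farthest to the left.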

How the data were processed

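Cerebral cortex RNA of 48 libraries was sequenced after TruSeq stranded preparation, per the labels' protocols. The authors deposited unnormalized read counts for each Ensembl gene ID. Per the submitters' processing notes, HTSeq 0.12.3, STAR 2.7.5c and SAMtools 1.10 were used, with mm10 and GRCm38 as build names; their roles are not given there. The deposited FPKM values were not used. Low genes were removed by filterByExpr at a count of 10 and a total of 15, and the rest were normalized by TMM and fitted with edgeR 4.0.16 (R 4.3.3) in 1 quasi-likelihood model of 6 groups and sex over 48 libraries, tested two-sided and adjusted by Benjamini-Hochberg over all 19547 genes. Positions are from GENCODE M21 (GRCm38), which held 48435 of the 48795 gene IDs. The fit was tested on simulated data. Alternatives used DESeq2 1.42.0, limma 3.58.1 and other filters, terms and subsets.

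The groups, gene lists (41 lists, of whose 1062 entries 1015 were tested) and the rule for named genes were chosen with earlier results of these data known. Named were Msh3 and Htt, called genes, the 10 of smallest p each way that did not pass (with a symbol and at least 1 CPM), genes called in Q140 against wild type, the 6 nearest genes on each side of Msh3 and, from every list, the 2 members with the lowest p. The chromosome 7 neighbours, the genes within 5 Mb and a few marker genes were added after values were seen. A few genes are not reported here. Same-numbered libraries of the 2 groups were not treated as pairs: 2 of 8 correlations of their deviations exceeded 0.1. No 2 libraries of a group agreed within counting error.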

Additional observations from a re-analysis of the deposited data

Results flagged for a closer look

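Within each group of 8 libraries, 276 sets of values were screened for 1 library that stands apart (the gap to its nearest neighbour over the whole range above 0.53, Dixon's limit for 8 values), which chance does in about 1 of 20 sets; 17 did so. The pituitary hormone gene Prl was at 1.90 CPM in Q140 M2 against at most 0.0636 CPM in the other Q140 libraries, and at 2.40 CPM in Q140 Msh3+/- M1. The summed pituitary list was at 3.15 CPM and 3.68 CPM in the same libraries. In Q140 M2, Camk2a was low at 4341 CPM, against 4687 to 4903 CPM in the other 7, and Npr3 was high at 17.8 CPM. In Q140 F3, Bhmt2 was high at 1.55 CPM against at most 1.07 CPM, and Hbb-bt at 0.392 CPM against at most 0.170 CPM. Q140 F4 was high for Aspg at 3.22 CPM, and Q140 F2 was low for mt-Nd3 at 0.423 CPM.

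Among Q140 Msh3+/- libraries, F4 was low for the immediate early gene Nr4a3 at 10.5 CPM, against 30.2 to 43.6 CPM in the others, and high for Rasd2 at 125 CPM and for Rspo1 at 37.2 CPM. Slc4a4 was low in M4 at 172.02 CPM, against 192 to 204 CPM, and the same library was high for F2rl1 at 0.370 CPM. Ntrk2 was low in F1 at 645 CPM, against 706 to 759 CPM, and Hba-a2 was high in F3 at 1.74 CPM.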

How the results depend on the processing

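Called genes numbered 6 in Q140 Msh3+/- against Q140. They numbered 4 to 7 over the alternatives with both sexes, 2 in females alone and 3 in males alone, fits with fewer samples, and 4 to 7 without any 1 library. Of the 2 called genes over 20 Mb from Msh3, 1 was left without a filter and without a sex term. With limma voom plus the library name prefix as a random block (2 choices changed together), 1 was left too. The Q140 libraries carried 8 prefixes and the Q140 Msh3+/- libraries 7 (M2 and M3 had the same), with 0 shared. In these 16 libraries prefix could thus not be told apart from genotype. A filter of 1 CPM in 8 libraries also left 1, as Gm37827 was not tested under it. DESeq2 called 3 genes over 20 Mb from Msh3, adding Gm38340. There were 0 in the 16 libraries alone, in females and in males, and 0 to 3 without any 1 library. The replicate block (sex and replicate number) gave 6 called genes, and those numbers did not pair the libraries (correlations from -0.29 to 0.32). Both interactions called 0 genes in each alternative run, DESeq2 included. AW495222 passed without a filter (adjusted p = 0.0379), with a plate column term (0.0399), with limma voom and the prefix block together (0.0236) and without Q140 Msh3+/- F1 (0.000765), and Hexdc without Q140 F4 (0.0321). Leaving out the 6 libraries whose summed pituitary genes exceeded 5 times the median of 48 libraries (0 exceeded it for choroid plexus genes) kept all 6 calls, as did RLE factors. Of the 6, 0 are among the 16, where Q140 Msh3+/- M1 (4.94 times) and Q140 M2 (4.23 times) lay just under that limit and were kept, as was Msh3+/- M2 for choroid plexus genes (4.91 times). All 123 list medians under 3 alternatives moved by less than the SD of the list mean between Q140 libraries. The alternatives were the 16 libraries alone, RLE factors and the fit without the 6 libraries. Each kept the counts of all 16 libraries, so the medians had little room to move.

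Directions that turned were of genes that had not passed (log2 fold changes follow). Htt was at -0.000715 without a filter and at -0.00138 with limma voom and the prefix block together. In females, Fam151b was at 0.0692, Zfyve16 at 0.0203, Mdm2 at 0.0152, Nr4a3 at 0.0552, Isg15 at -0.114, Pomc at -0.180 and Tnnt1 at -0.0335. In males, Acot12 was at 0.182, Atg10 at -0.0492, Thbs4 at 0.0196 and Dcn at 0.0392. Over the fits without 1 library, Htt ranged from -0.0145 to 0.0161, Zcchc9 from -0.00474 to 0.0505, Acot12 from -0.331 to 0.0553, Atg10 from -0.0275 to 0.0621 and Serinc5 from -0.00228 to 0.0390. The causes were not tested. Genes under 1 CPM had a larger median SE than the others (0.3002 against 0.0562).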

Other observations

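Capn11, a calpain protease gene, had the largest log2 fold change of any gene with a mean of at least 1 CPM, chosen after its values were seen. It was at 0.315 ± 0.142 CPM in Q140 and at 1.88 ± 1.78 CPM in Q140 Msh3+/- (mean ± SD, n = 8 per group), a difference of 2.48 ± 0.835 that did not pass (edgeR, adjusted p = 0.768). In Msh3+/- against wild type its difference had the opposite sign, at -1.75.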
